A study of Mus musculus with 15 samples.

Results

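Atoh1, Myod1, Neurod1, Neurod2, Nhlh1 and Nhlh2 encode tissue-specific transcription factors of the basic helix-loop-helix (bHLH) family. They were chosen by name, 6 of the 27803 genes listed in the deposited tables, and each was listed in 15 of 15 tables. Their transcripts were followed through 33482 cells of the cerebellar granule neuron progenitor (CGNP) lineage, out of 37946 cells kept, in Drop-seq libraries of 15 mice. The 5 WT cerebella came from untreated mice at day 7 after birth. The 10 tumors were medulloblastomas of M-Smo mice (C57BL/6), in which Cre, driven by the Atoh1 (Math1) promoter, switches on SmoM2, a constitutively active form of Smoothened, the signal transducer of the Sonic hedgehog (SHH) pathway, together with an EYFP tag. The 5 Vismodegib mice received 3 daily injections of the SMO inhibitor vismodegib at 75 mg/kg, the 5 Vehicle mice received the NMP:PEG carrier, and these tumors were collected at day 15. The driver limits SmoM2 to cells that have used the Atoh1 promoter, and their descendants. Genotype, age and the encapsulation device (PDMS for WT, glass for tumors) all separate the Vehicle tumors from the WT cerebella and cannot be told apart. The comparison of Vismodegib with Vehicle addressed how the tumor cells responded to SMO inhibition, and that of Vehicle with WT how tumor cells differed from the lineage in which these tumors arise.

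Tissue-specific bHLH proteins bind DNA as dimers with the widely expressed E proteins (Tcf3, Tcf4, Tcf12) at E-box sites, which read CANNTG. Id proteins take up E proteins without binding DNA, and most Hes and Hey proteins are bHLH repressors that act downstream of Notch and other signals. In the developing cerebellum Atoh1 is needed for the formation of granule neuron progenitors and is switched off as they leave the cell cycle. Neurod1 is needed for granule neuron differentiation and survival, Neurod2 acts in maturing neurons, and Nhlh1 and Nhlh2 (NSCL1 and NSCL2) are expressed in newly formed neurons. Myod1 is the determination factor of skeletal muscle and belongs to the same family, but is not a neural factor.

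In GRCm38 with GENCODE M21 annotation, Atoh1 lies on chromosome 6 from 64729125 to 64731245 on the plus strand (1 exon). Myod1 (3 exons) lies on chromosome 7 from 46376474 to 46379099 on the plus strand. Neurod1 (2 exons) lies on chromosome 2 from 79452521 to 79456751 on the minus strand and overlaps Cerkl on the same strand and Gm26755 on the other, so its counts are uncertain where the authors' counting could have split reads. Neurod2 (2 exons) lies on chromosome 11 from 98325415 to 98329648 on the minus strand, Nhlh1 (2 exons) on chromosome 1 from 172052292 to 172057573 on the minus strand, and Nhlh2 (up to 3 exons in 3 transcripts) on chromosome 3 from 102010076 to 102015492 on the plus strand.

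E-box cores in the RefSeq promoters (GRCm38.p6) of the members are shown first, because bHLH dimers bind such sites and the window shows which cores the genes of the series carry. The search covered the 250 bases before each annotated start on both strands. A CANNTG core was found before the starts of Neurod1, Neurod2, Nhlh1 and Nhlh2 and none in that window before Atoh1. Myod1 was not in the promoter table. The core CATATG was found before Neurod1 and Neurod2, and CAGATG, which reads as CATCTG from the other strand, before Neurod2, Nhlh1 and Nhlh2. CAGCTG was found before no member. The other two cores, CATGTG at 51 bases before Neurod2 and CAACTG at 209 bases before Nhlh2, are named only, since no other member shared them. Each sequence runs 5′ to 3′ on the strand of its gene, with the core in capitals.
Neurod1, chr2:79456863-79456886, minus strand, core 242 bases before the start: gggaagacCATATGgcgcatgccg
Neurod2, chr11:98329647-98329672, minus strand, core 17 bases before the start: gtgccaagccCATATGgcctggcata
Neurod2, chr11:98329748-98329773, minus strand, core 118 bases before the start: tagagagtgaCAGATGgcggcgggtc
Nhlh1, chr1:172057784-172057809, minus strand, core 203 bases before the start: gcatggagaaCAGATGtccctgctcc
Nhlh2, chr3:102010008-102010033, plus strand, core 127 bases before the start: cacactgtgaCAGATGtcaagtccaa
A match is common in such windows: CANNTG occurred in 66.2% of 32851 promoters, CAGATG (on either strand) in 14.4%, CAGCTG in 13.001% and CATATG in 3.46%. The matches are a description of these letters and say nothing about binding.

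A level in CPM is the number of UMIs of a gene among every 1000000 UMIs that 1 animal had in cells of a class, and n = 5 animals per group unless stated. Levels of different genes are not compared with each other. The libraries held 2310474 to 17708677 UMIs over all listed barcodes, with 805 to 8103 cells kept and a median of 1082 to 2597 UMIs per kept cell. Libraries shared at most 6 cell barcodes, in 31 of 105 pairs. Cells were clustered without the 6 genes and named from markers. Of the lineage stages, Nodes A and B held progenitors, but their names covered different parts of the cell cycle in WT and tumors. WT Node A-like cells were 1 cluster of 826 cells led by mitotic genes such as Ube2c and Cdc20, and WT Node B-like cells were a cluster led by genes of DNA replication such as Mcm3 and Cdc6 (908 cells) and one led by Ttr and hemoglobin genes (834 cells). Tumor Node A-like cells joined a mitotic cluster (1486 Vehicle and 601 Vismodegib cells) with clusters led by Hist1h2ak (2014 and 515) and by Ccne2 and E2f2 (530 and 579), genes of S phase and its start. Differentiating cells formed Node C, and Node D-like cells were late granule neurons. The WT Node D-like cluster also had Eomes, a marker of unipolar brush cells, among its leading genes, as did 1 tumor cluster of Node C-like cells (784 Vehicle and 1211 Vismodegib cells). The tumors formed 2 sets that cut across treatment (Vehicle 1 and 3 with Vismodegib 1, 2 and 3; Vehicle 2, 4 and 5 with Vismodegib 4 and 5), first seen in earlier work on these data and not given by the labels. Between the sets, at equal treatment, the lineage log2 level of Atoh1 was 0.57 and that of Neurod1 0.80 higher, in the second set, and Nhlh2 differed by -0.65, which is given as a description because the sets were found in the expression of these data.

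Every member was also counted in glial and vascular cells (astrocyte-, oligodendrocyte-, microglia-, vascular fibroblast- and endothelial-like), taken here as cells without these factors. Droplet libraries carry free RNA, and the members' levels there give a background for each group. Depth per cell was not matched between the glial and vascular cells and the lineage stages. The authors traced some tumor astrocytic and oligodendrocytic cells to predecessors that expressed Math1-Cre. Tumor background may therefore hold RNA made by such cells, and their part was not tested. Mean background levels in WT, Vehicle and Vismodegib were 8.82, 14.7 and 5.08 CPM for Atoh1. They were 1.95, 15.8 and 11.7 CPM for Myod1. For Neurod1 they were 248, 194 and 215 CPM, and for Neurod2 51.1, 11.4 and 22.8 CPM. Background was thus not negligible for Neurod1 and Neurod2. The values were 15.0, 21.6 and 23.1 CPM for Nhlh1 and 56.8, 63.7 and 56.0 CPM for Nhlh2.

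Along the lineage the 6 genes were spread over successive stages. Atoh1 had its highest level at Node B-like stage in 5 of 5 WT cerebella, 5 of 5 Vehicle tumors and 4 of 5 Vismodegib tumors. In the tumors Myod1 was highest in Node A-like cells in 10 of 10 animals. The peak of Nhlh1 and of Nhlh2 lay in Node C-like cells of 15 of 15 animals. That of Neurod2 lay in Node D-like cells of 15 of 15. Neurod1 reached its highest level in Node D-like cells of 10 of 10 tumors and in Node C-like cells of 5 of 5 WT cerebella.

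**Figure D1:**
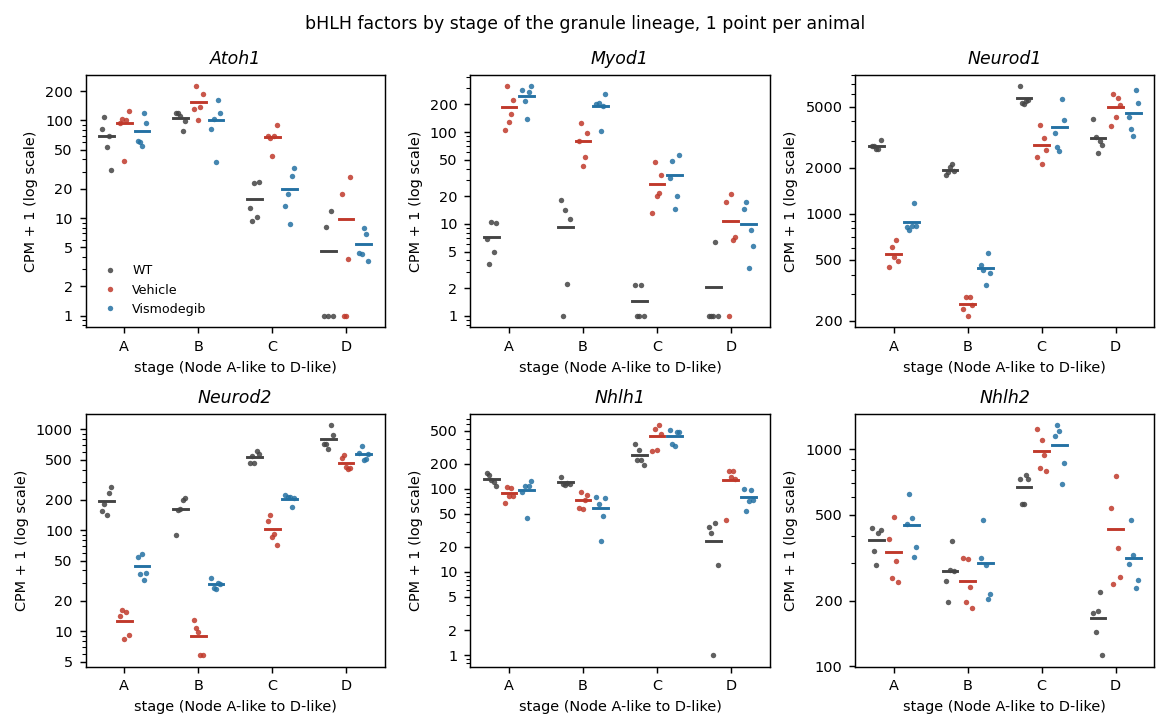
CPM + 1 on a log axis for each factor in Node A-like to Node D-like cells, with 1 point per animal (5 WT, 5 Vehicle, 5 Vismodegib) and a bar at the group mean. Atoh1 means are highest in Node B and tumor Myod1 means in Node A, Nhlh1 and Nhlh2 rise to a maximum in Node C, and Neurod2 is highest in Node D in every animal; Myod1 means in WT stay between 0.465 and 8.36 CPM.

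Ordering the same cells by a score of late minus early markers, cut into 10 bins, gave levels without stage borders. Atoh1 in the Vehicle tumors reached its highest mean in bin 5 (170.4 CPM), whereas Myod1 did so in bin 2 (167 CPM in Vehicle, and 244 CPM in the same bin of Vismodegib). In the Vismodegib tumors Atoh1 was highest earlier, in bin 1 (102 CPM), before Myod1. Nhlh1 peaked in bin 8 of Vehicle at 495 CPM and Nhlh2 in the same bin at 1202 CPM, in both cases 1 bin later than in WT and Vismodegib. Neurod2 had its highest mean in bin 10 of all 3 groups, at 734 CPM in WT, 365 CPM in Vehicle and 525 CPM in Vismodegib. No test was made between bins.

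**Figure D2:**
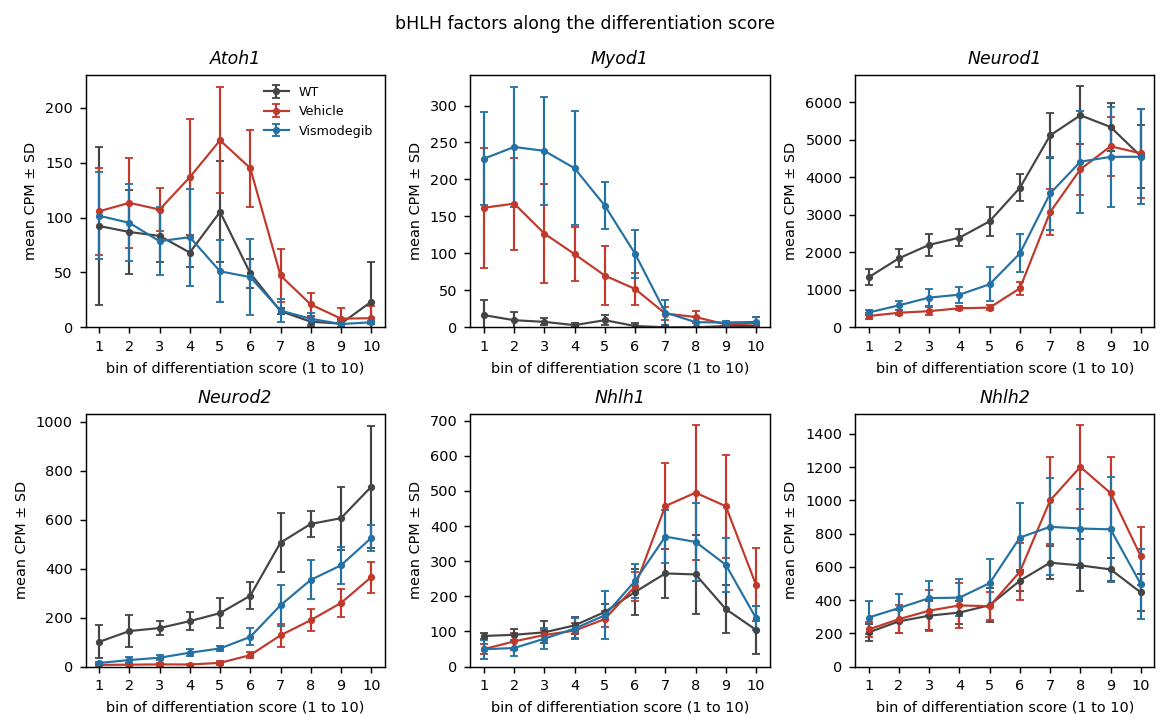
Mean CPM ± SD over 5 animals in 10 bins of a per-cell score of late minus early lineage markers, from least (1) to most differentiated (10), for WT, Vehicle and Vismodegib. Atoh1 and Myod1 means in bins 8 to 10 lie below those in bins 1 to 6 in each group, the means of Nhlh1 and Nhlh2 are highest in bin 7 (WT and Vismodegib) or 8 (Vehicle), and the Neurod2 lines of the 3 groups stay in the order WT, Vismodegib, Vehicle.

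Atoh1, which maintains granule neuron progenitors, was higher in the Vehicle tumors than in WT and lower after vismodegib. Its fall with the drug was larger in differentiating Node C-like cells than in Node A-like cells. In all lineage cells its mean was 58.1 ± 12.2 CPM (SD, n = 5) in WT, 105 ± 33.6 in Vehicle and 44.6 ± 10.05 in Vismodegib. The log2 change with vismodegib was -1.22 ± 0.24 (SE), with edgeR adjusted p = 0.00402. Of the 6 members 3 were called in this comparison, against 13.3% of all genes tested. The log2 difference of Vehicle from WT was 0.79 ± 0.23 (SE) (edgeR adjusted p = 0.00973), a comparison in which 4 of the 6 members and 44.7% of all genes were called.

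In Node C-like cells Atoh1 stood at 68.5, 64.8, 41.8, 69.1 and 89.2 CPM in Vehicle tumors 1 to 5. The values in Vismodegib tumors 1 to 5 were 12.3, 16.5, 7.67, 26.2 and 31.5 CPM, and those in WT cerebella 1 to 5 were 11.6, 8.28, 21.9, 9.34 and 22.3 CPM. Every Vehicle tumor was above every Vismodegib tumor and every WT cerebellum. The change with vismodegib was -1.70 ± 0.29 (SE) on the log2 scale, a 3.24-fold lower level (edgeR adjusted p = 0.00700), and 2 of 6 members were called in Node C-like cells beside 1.57% of all genes. Vehicle exceeded WT by 2.22 ± 0.30 (SE) (edgeR adjusted p = 1.82e-05, with 5 of 6 members and 33.7% of all genes called). The means of 14.7, 66.7 and 18.8 CPM in WT, Vehicle and Vismodegib each exceeded the glial and vascular mean of the same group, given above.

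In the cycling stages Atoh1 did not pass the test. It stood at 92.1 ± 32.6 CPM in Vehicle and 76.9 ± 27.4 in Vismodegib in Node A-like cells (log2 change -0.24 ± 0.28 (SE), edgeR adjusted p = 0.837). In Node B-like cells the means were 155 ± 49.6 and 99.0 ± 45.6 CPM (log2 change -0.59 ± 0.29 (SE), edgeR adjusted p = 0.352). The difference between the effects in Node A-like and Node C-like cells was itself tested on log2(CPM + 10): the change was -0.21 in Node A and -1.45 in Node C, and the effects differed by 1.25 (exact permutation test, two-sided, adjusted p = 0.0476). Atoh1 thus fell by more in Node C-like than in Node A-like cells. Different clusters held much of Node C in the 2 treatments: the cluster led by Chrna3 held 2497 Vehicle and 831 Vismodegib cells, and that led by Pnoc 784 and 1211, and the part of this mix in the Atoh1 change was not tested. Within the 2 sets of tumors the Node C log2 changes were -1.55 and -1.11, of the same sign. Without Vehicle 3, Node B-like Atoh1 was also called higher in Vehicle than in WT (0.55, edgeR adjusted p = 0.0357), as it was with all animals and no filter on low counts (0.62, 0.00914), and with all animals and the filter it was not (0.42, 0.126).

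Within a stage, cells with an Atoh1 UMI held less Neurod1, the next factor of the series, in every animal with enough cells of each of the 8 combinations of stage and group compared (Nodes A and B in each group, Node C in Vehicle and Vismodegib). In Vehicle Node C-like cells Neurod1 averaged 1006 ± 391 CPM in cells with an Atoh1 UMI and 3013 ± 740.2 CPM in cells without, and was lower in 5 of 5 tumors. In Vismodegib Node A-like cells the values were 603 and 1009.7 CPM, lower in 5 of 5. In WT Node A-like cells they were 2026 and 3094 CPM, lower in 4 of the 4 cerebella with enough cells. Lower levels were not particular to Neurod1. In Vehicle Node C-like cells Neurod2 stood at 27.6 against 111 CPM, Nhlh1 at 227 against 453 and Nhlh2 at 514 against 1029. Each was lower in 5 of 5 tumors, and Myod1 was lower in 1 of 5. In Vehicle Node B-like cells Neurod2, Nhlh1 and Nhlh2 were lower in 3, 2 and 3 of 5, and Myod1 in 5 of 5. These are descriptions with no test, and depth per cell was not matched between the 2 kinds of cells.

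Myod1, the skeletal muscle determination factor, was expressed by tumor cells and close to absent from WT cerebella. In Node A-like cells it stood at 104, 316, 128, 157 and 221 CPM in Vehicle tumors 1 to 5 and at 286, 217, 137, 274 and 315 CPM in Vismodegib tumors 1 to 5. WT cerebella 1 to 5 held 5.80, 2.68, 9.61, 3.98 and 9.31 CPM. Every tumor was above every WT cerebellum. Vehicle exceeded WT by 4.90 ± 0.39 (SE) on the log2 scale in Node A-like cells, 29.9-fold (edgeR adjusted p = 4.08e-08), and by 3.11 ± 0.48 (SE) in Node B-like cells (5.98e-05). In both stages 4 of 6 members were called, beside 34.4% and 36% of all genes. In all lineage cells the difference was 4.42 ± 0.41 (SE) (edgeR adjusted p = 1.59e-06).

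In the WT cerebella Myod1 had 43 UMIs in 5061 lineage cells. In Node C-like cells 2 WT UMIs stood against 246 in Vehicle, a ratio of pooled rates of 41.6 with a 95% interval of 11.4 to 346 (exact conditional binomial, counting error only), while the fitted log2 value of 4.92 (edgeR adjusted p = 1.91e-05) depends on the prior count. The Vehicle Node C-like mean was 26.2 ± 13.7 CPM, beside a background of 15.8 ± 4.93 CPM in glial and vascular cells of the same tumors. Over the cell classes pooled there this background ran from 5.04 to 39.3 CPM, so the highest class exceeded the Node C-like mean. That background was itself above the WT value of 1.95 ± 1.33 CPM, and the part of free RNA in the Node C difference was not tested.

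Cells with at least 1 Myod1 UMI made up 33.9% of Node A-like and 11.6% of Node B-like cells in Vehicle, and 44.1% and 27.6% in Vismodegib. After thinning every cell to 500 UMIs the 4 shares were 8.16%, 4.18%, 10.6% and 9.30%. In glial and vascular cells, with median depths of 1979 and 2605 UMIs, the shares were 3.64% and 2.61%, and 0.557% and 0.974% thinned. The shares in Nodes A and B lay above these pooled shares, and the unthinned shares in Node D (1.15% and 1.27%) below them. Vehicle microglia-like cells came closest, at 7.64% unthinned and up to 10.8% in a tumor, where the lowest Vehicle Node B share was 7.99%.

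Vismodegib was associated with more Myod1 in the Node B-like progenitors. In Node B-like cells the Vehicle tumors 1 to 5 held 79.4, 125, 41.9, 52.3 and 97.7 CPM and the Vismodegib tumors 1 to 5 held 201, 207, 102, 189.8 and 262 CPM. The 2 ranges overlapped, with 1 Vismodegib tumor below the highest Vehicle tumor. The log2 change was 1.29 ± 0.27 (SE), 2.45-fold (edgeR adjusted p = 0.0152), and 3 of 6 members were called in Node B-like cells beside 3.02% of all genes. The stage joined 2 clusters, of which that led by Hes1 held 4765 Vehicle and 891 Vismodegib cells and that led by the replication gene Cdc6 2514 and 991, and the part of this shift in the Myod1 change was not tested. In the 2 sets of tumors the change was 1.34 and 1.27. With stages taken from marker scores in place of clusters the change was 1.01 and was not called (edgeR adjusted p = 0.0882). Above the glial and vascular background the levels were 181 ± 60.2 and 63.5 ± 35.5 CPM (exact permutation test, adjusted p = 0.0635 over 12 tests), and this difference passed without Vismodegib 3, 4 or 5 (0.0317, 0.0476 and 0.0476).

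The other stages showed no called change of Myod1 with vismodegib. The log2 change was 0.38 ± 0.28 (SE) in Node A-like cells (edgeR adjusted p = 0.685), 0.31 ± 0.37 (SE) in Node C-like cells (0.789) and 0.15 ± 0.27 (SE) in the whole lineage (0.768). The lineage means were 103 ± 45.6 CPM in Vehicle and 115 ± 28.1 CPM in Vismodegib. In Node D-like cells it did not pass the filter on low counts.

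The muscle programme was followed beside Myod1. Of a list of 25 myogenic genes, 24 were in the tables and 7 passed the filter in lineage cells. Cdh15 (M-cadherin, a cell adhesion molecule of satellite cells that is also made by granule cells) was higher in Vehicle than in WT, at 24.1 ± 12.3 against 0.352 ± 0.515 CPM (log2 5.41 ± 0.60 (SE), edgeR adjusted p = 7.39e-06). In Node A-like cells the pooled counts were 402 UMIs in Vehicle and 1 in WT, a ratio of 103 with a 95% interval of 18.3 to 4062 for counting error. Acta1 (skeletal alpha-actin) was lower in Vehicle (-0.96 ± 0.25 (SE), edgeR adjusted p = 0.00524). The median over the 7 genes was 0.11, beside 0.06 over all genes tested. With vismodegib 0 of the 7 were called by edgeR in the lineage (1 at an unadjusted p under 0.05 and 1 by DESeq2), beside 13.3% of all genes, and in Node A-like cells Mef2c, a MADS-box partner of the myogenic factors that neurons use too, was higher (0.87 ± 0.17 (SE), edgeR adjusted p = 0.00983).

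Myog (myogenin), the usual target of Myod1 in muscle differentiation, had 37 UMIs in all kept cells. Of these 36 came from 6 of 7 cells of 4 tumors that held 17 to 1647 UMIs over 22 muscle genes. Only 3 of the 7 held a Myod1 UMI, and 2 were among the lineage cells. In the remaining Node A-like and B-like tumor cells, 3647 with a Myod1 UMI held 1 Myog UMI and 11237 without one held 0. Myf5, the other muscle determination factor, had 0 in both. A count of 0 allows up to 0.243 CPM (3 UMIs) in the former cells and 0.124 CPM in the latter. Cdh15 was at 51.5 CPM in the former and 32.7 CPM in the latter, higher in 9 of 10 tumors. Acta1 was at 9.46 and 6.72 CPM, higher in 10 of 10, and Mef2c at 60.9 and 48.0 CPM, higher in 7 of 10. Tmem8c (myomaker, a membrane protein of myoblast fusion) had 31 and 16 UMIs, 2.51 and 0.663 CPM, higher in 7 of 10, and Myl4, a myosin light chain, was at 6.96 and 5.02 CPM, higher in 8 of 10. Other muscle genes ran the other way, such as Tnnt3, a fast troponin (6 and 15 UMIs), lower in 8 of 10, and Ttn (titin, 9 and 35 UMIs) at 0.728 and 1.45 CPM, lower in 7 of 10. Of the 24 genes, 10 were higher in more tumors than lower, 10 were lower in more and 4 neither. Only 13 of the 24 had at least 20 UMIs over both kinds of cells, so this tally rests partly on very few counts. Tmem8c, Myl4, Tnnt3 and Ttn were chosen after their values were seen, and the pooled levels are a description. These levels join Node A-like and Node B-like cells without matching for stage, and cells with a Myod1 UMI were more frequent in Node A.

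Cells with and without a Myod1 UMI were compared in Node A-like and B-like cells of the same tumor, each stage weighted alike. Nhlh1 stood at 67.0 against 83.8 CPM, lower in the Myod1+ cells of 10 of 10 tumors (exact permutation of signs, two-sided, adjusted p = 0.0176 over 9 genes). Mki67, a proliferation marker, stood at 1374 against 1217 CPM, higher in 9 of 10 (exact permutation test, adjusted p = 0.0176). Neither held once cells were thinned to 500 UMIs, where the differences were 1.86 and -25.0 CPM. Atoh1 stood at 96.8 against 108 CPM, Neurod1 at 471 against 616 CPM, Neurod2 at 20.2 against 26.6 CPM and Nhlh2 at 327 against 345 CPM, and these 4 did not pass the test (exact permutation test, adjusted p = 0.202, 0.0879, 0.235 and 0.312). Cntn2, an adhesion molecule of young granule neurons, stood at 78.5 against 123 CPM (exact permutation test, adjusted p = 0.0762), and was called without Vehicle 1 (exact permutation test, adjusted p = 0.0176). Gli1, a target of SHH signalling, and Barhl1 stood at 102 against 94.3 CPM and 400.0 against 417 CPM (exact permutation test, adjusted p = 0.235 and 0.0984), and both passed with stages from marker scores (differences of 15.6 and -44.5 CPM, exact permutation test, adjusted p = 0.0117 in each).

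Neurod1 and Neurod2, the differentiation factors of the group, were lower in Vehicle tumors than in WT in the dividing and differentiating stages, and both were higher in the Vismodegib than in the Vehicle tumors. Neurod2 in all lineage cells stood at 261, 354, 257, 405 and 383 CPM in WT cerebella 1 to 5. In Vehicle tumors 1 to 5 it was 54.0, 59.8, 53.2, 60.1 and 27.9 CPM, and in Vismodegib tumors 1 to 5 174, 201, 176, 246 and 304 CPM. Vehicle overlapped with neither of the other groups. Vehicle differed from WT by -2.78 ± 0.21 (SE) on the log2 scale, 6.88-fold lower (edgeR adjusted p = 2.63e-07), and Vismodegib from Vehicle by 2.13 ± 0.23 (SE), 4.37-fold higher (1.54e-04).

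Neurod2 rose with vismodegib in Nodes A, B and C. In Node C-like cells the Vehicle tumors held 122, 140.2, 85.7, 91.1 and 71.3 CPM and the Vismodegib tumors 221, 211, 213, 169 and 208 CPM, with no overlap (log2 change 1.01 ± 0.18 (SE), edgeR adjusted p = 0.00700). In Node A-like cells the ranges were 7.29 to 15.3 and 31.0 to 57.6 CPM (1.84 ± 0.27 (SE), edgeR adjusted p = 0.00125), where 2 of 6 members were called beside 2.21% of all genes. The clusters of Node A were also mixed differently, with 530 Vehicle and 579 Vismodegib cells in that led by Ccne2, 2014 and 515 in that led by Hist1h2ak and 1486 and 601 in that led by Ccnb1, and the part of this mix in the Node A changes was not tested. In Node B-like cells the ranges were 4.81 to 11.98 and 25.0 to 32.4 CPM (1.85 ± 0.29 (SE), edgeR adjusted p = 0.00193). The change was of the same sign in both sets of tumors in each stage, at 1.54 and 0.96 in Node A, 0.88 and 1.25 in Node B and 1.00 and 0.88 in Node C on the scale of log2(CPM + 10).

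In the dividing stages these levels were near the glial and vascular background, except in Node A of Vismodegib, where the mean was 43.1 CPM. The background was 11.4 ± 7.54 CPM for Neurod2 in Vehicle and 22.8 ± 11.6 CPM in Vismodegib, and so was higher in Vismodegib too. Above it, Neurod2 in Node A-like cells was 20.3 ± 16.9 CPM in Vismodegib and 0.30 ± 10.3 CPM in Vehicle (exact permutation test, adjusted p = 0.119 over 12 tests). Of 10 fits that left out 1 tumor, that without Vismodegib 4 passed (exact permutation test, adjusted p = 0.0317). In Node B-like cells the values were 5.38 ± 14.1 and -3.34 ± 7.97 CPM (exact permutation test, adjusted p = 0.343). In Node C-like cells the means of 102 and 204 CPM stood far above the background.

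**Figure D3:**
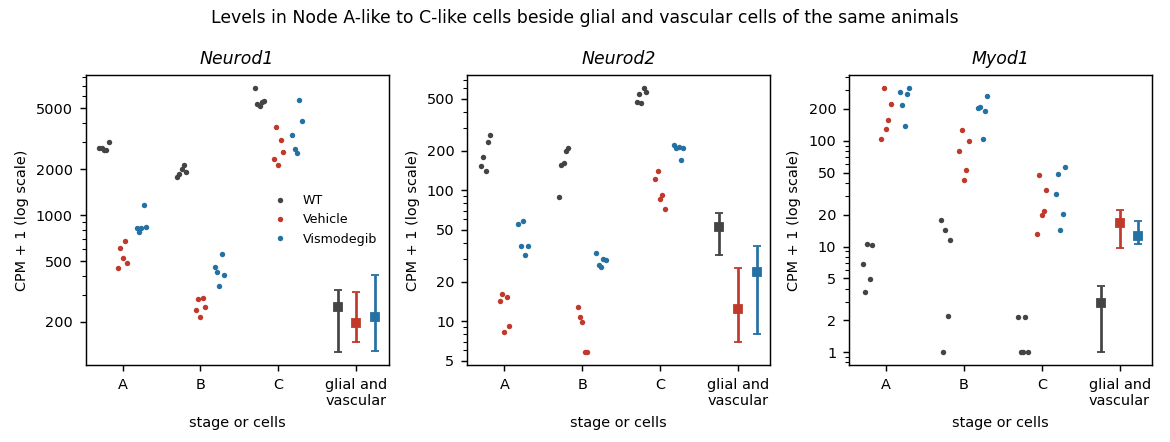
CPM + 1 on a log axis for Neurod1, Neurod2 and Myod1 in Node A-like, B-like and C-like cells, 1 point per animal, beside glial and vascular cells of the same groups (square, mean; bar, lowest to highest of 5 animals). Tumor Neurod2 in Node B overlaps the range of the glial and vascular cells, while Node C lies above them in both treatments, and tumor Myod1 in Nodes A and B lies above them.

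Neurod1 in Node A-like cells stood at 449, 608, 524, 671 and 487 CPM in Vehicle tumors 1 to 5, 822, 776, 824, 1171 and 831 CPM in Vismodegib tumors 1 to 5 and 2762, 2748, 2658, 2647 and 3011 CPM in WT cerebella 1 to 5. In Node B-like cells the ranges were 214 to 286, 343 to 556 and 1786 to 2118 CPM. The 3 groups did not overlap in either stage, and the tumors of both treatments were below WT. Vehicle differed from WT by -2.45 ± 0.16 (SE) in Node A (edgeR adjusted p = 2.15e-09) and -3.10 ± 0.16 (SE) in Node B (4.73e-10). These stages joined unlike clusters in WT and Vehicle, whose part in the differences was not tested. Both calls held with stages from marker scores and without the clusters led by hemoglobin or Ttr. With vismodegib Neurod1 rose by 0.80 ± 0.16 (SE) in Node B (edgeR adjusted p = 0.0108) and by 0.68 ± 0.17 (SE) in Node A (0.0418). The Node A call was lost without each of Vehicle 1, 2, 3 and 5 and Vismodegib 1, 3, 4 and 5 (edgeR adjusted p from 0.0639 to 0.118).

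Above the glial and vascular background, Neurod1 was 669 ± 64.1 CPM in Vismodegib and 353 ± 47.9 CPM in Vehicle in Node A-like cells, and 222 ± 86.4 and 60.0 ± 52.5 CPM in Node B-like cells (exact permutation test, adjusted p = 0.0476 in both). Depth per cell was not matched in this subtraction. Median UMIs were 1979 in Vehicle and 2605 in Vismodegib glial and vascular cells, and 1545 and 1493 in Node B-like cells. The part of depth in these differences was not tested. Leaving out 1 animal at a time, the differences stayed at 292 to 333 CPM in Node A and 135 to 187 CPM in Node B, while without any 1 of the 5 Vehicle tumors the adjusted p over 12 tests was above the threshold (0.0635 or 0.0952, exact permutation test with 4 tumors against 5). In all lineage cells Neurod1 was 3405 ± 277 CPM in WT, 1182 ± 314 in Vehicle and 2569 ± 1109.9 in Vismodegib. Its change with vismodegib was 1.129 ± 0.29 (SE) (edgeR adjusted p = 0.0180) and was just outside the threshold without Vehicle 5 (0.0503) or Vismodegib 5 (0.0542). Vehicle differed from WT by -1.59 ± 0.18 (SE) (edgeR adjusted p = 7.74e-06).

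Later in the lineage the estimated changes were smaller in size. Whether they differed between stages was not tested against WT, and with vismodegib the main test between Nodes A and C, given below, passed for neither gene. Neurod1 in Node C-like cells was 2787 ± 667 CPM in Vehicle, 3673 ± 1251 in Vismodegib and 5669.9 ± 654 in WT. Vehicle was below WT (-1.17 ± 0.17 (SE), edgeR adjusted p = 4.83e-05), and the change with vismodegib was not called (0.41 ± 0.23 (SE), 0.492), except with a term for the 2 sets of tumors (0.52, edgeR adjusted p = 0.0481). Neurod2 in Vehicle was below WT in Node A (-4.21 ± 0.25 (SE), edgeR adjusted p = 1.09e-09), Node B (-4.54 ± 0.29 (SE), 5.08e-09), Node C (-2.53 ± 0.18 (SE), 2.46e-08) and Node D (-0.92 ± 0.19 (SE), 4.47e-04). In Nodes A and B the Vehicle levels were near the glial and vascular background, which was 11.4 CPM in Vehicle and 51.1 CPM in WT. The part of this background in the sizes for Nodes A and B was not tested. In Node D-like cells, where 3 of 3 members tested and 27.2% of all genes were called, Vehicle held more Neurod1 than WT (4970.0 ± 953 against 3107 ± 622 CPM, 0.59 ± 0.17 (SE), edgeR adjusted p = 0.0112). That sign turned with stages from marker scores (-0.47, edgeR adjusted p = 0.0746).

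Between the 2 treatments no member was called in Node D-like cells. Neurod2 stood at 462 ± 68.0 CPM in Vehicle and 569 ± 77.9 in Vismodegib (0.33 ± 0.15 (SE), edgeR adjusted p = 1.000). Of 4 members tested 0 were called by edgeR and 0 by DESeq2, 2 had an unadjusted p under 0.05, and 0.0323% of all genes were called. Node D-like cells were few in Vehicle (771 cells against 4160 in Vismodegib). With stages from marker scores Neurod2 was called higher (1.12, edgeR adjusted p = 5.02e-04) and Nhlh1 lower (-0.84, 0.0491) with vismodegib.

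Nhlh1 and Nhlh2, which mark the newly differentiating cells, were not called in any stage between Vismodegib and Vehicle. Nhlh1 in Node C-like cells stood at 281, 519.7, 296, 579 and 453 CPM in Vehicle tumors 1 to 5, 504, 347, 326, 481 and 482 CPM in Vismodegib tumors 1 to 5 and 344, 224, 288, 222 and 191 CPM in WT cerebella 1 to 5. The treated and untreated tumors overlapped throughout. The log2 change with vismodegib was 0.01 ± 0.22 (SE) (edgeR adjusted p = 0.992). For Nhlh2 in the same cells the means were 978 ± 189.8, 1039 ± 253 and 666 ± 98.6 CPM, and the change was 0.09 ± 0.18 (SE) (0.885). Over all lineage cells Nhlh1 was 167 ± 48.9 CPM in Vehicle and 165 ± 38.3 in Vismodegib, and Nhlh2 466 ± 115 and 536 ± 169.8 (log2 changes -0.03 ± 0.22 (SE) and 0.20 ± 0.22 (SE), edgeR adjusted p = 0.965 and 0.617).

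Against WT, Nhlh1 in Vehicle was lower in the dividing stages. It was 87.0 ± 16.4 against 130.1 ± 19.6 CPM in Node A-like cells (-0.69 ± 0.17 (SE), edgeR adjusted p = 0.00423) and 72.0 ± 15.1 against 119 ± 11.9 CPM in Node B-like cells (-0.88 ± 0.18 (SE), 7.23e-04). The Node B call was lost with stages from marker scores (-0.35, edgeR adjusted p = 0.159). In Node C-like cells Vehicle was higher than WT (0.60 ± 0.22 (SE), edgeR adjusted p = 0.0404), a call that was lost without each of WT 2, 4 and 5 and Vehicle 2, 4 and 5 (0.0581 to 0.113).

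Nhlh2 was not called between Vehicle and WT in Nodes A, B and C (log2 -0.32 ± 0.19 (SE), -0.35 ± 0.20 (SE) and 0.40 ± 0.16 (SE), edgeR adjusted p = 0.191, 0.181 and 0.0646). Leaving out Vehicle 3 gave a call in Node A (-0.49, edgeR adjusted p = 0.0255), and leaving out Vehicle 2 or Vehicle 5 gave one in Node C (0.46 and 0.47, 0.0456 and 0.0398), as did DESeq2 with all animals (adjusted p = 0.0208). Nhlh2 in Node C was also called with no low-count filter (0.55, edgeR adjusted p = 0.0102) and without the clusters led by hemoglobin or Ttr (0.45, 0.0404). In Node D-like cells Vehicle was higher, at 537, 239, 749, 351 and 257 CPM in tumors 1 to 5 against 175, 143, 178, 219 and 112 CPM in WT cerebella 1 to 5. The groups did not overlap (1.25 ± 0.29 (SE), edgeR adjusted p = 0.00163). With stages from marker scores the difference was 0.11 (0.733), so it depended on which cells were counted as late.

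Both comparisons use the same Vehicle tumors, so opposite signs in the 2 are not independent of each other. Set side by side, the fold changes show Neurod2 called in Nodes A to C with vismodegib and in all 4 stages against WT, Neurod1 in Nodes A and B and in all 4 stages, and Nhlh1 and Nhlh2 with calls against WT alone.

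**Figure D4:**
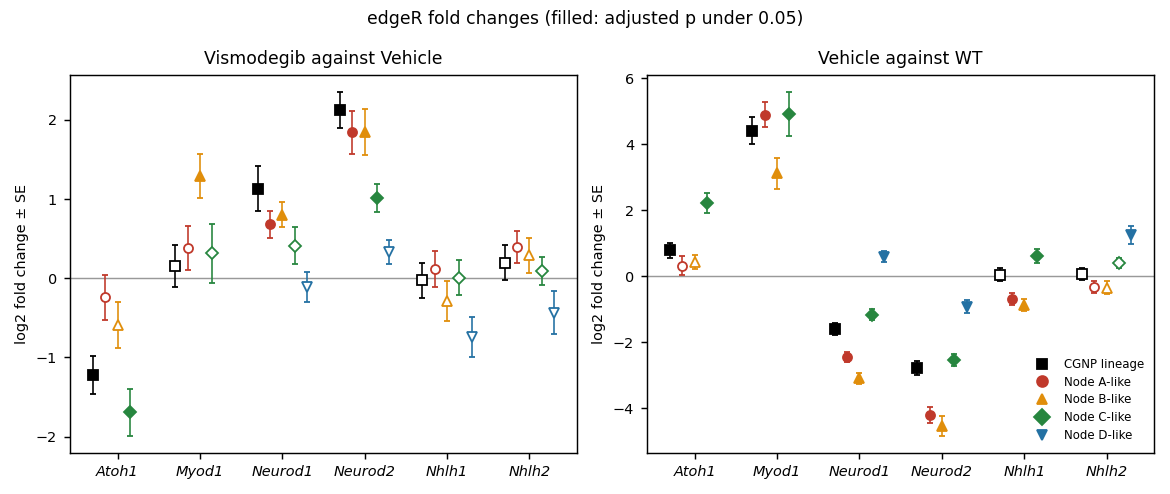
edgeR log2 fold change ± SE of each factor for Vismodegib against Vehicle (left) and Vehicle against WT (right), in all CGNP lineage cells and in each stage, with filled symbols where the adjusted p is under 0.05. Neurod2 is above 0 on the left and below 0 on the right in every stage drawn, Nhlh1 and Nhlh2 are open throughout the left panel, and Atoh1 is filled on the left in the lineage (-1.22) and Node C (-1.70).

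Outside the granule lineage the WT cerebella held GABAergic cells, in which the same genes were seen except Atoh1 and Myod1. GABAergic interneuron-like cells (639 cells, 5 animals) held Neurod1 at 821 ± 42.2 CPM, Neurod2 at 717 ± 104 CPM, Nhlh1 at 79.8 ± 30.6 CPM and Nhlh2 at 806 ± 109 CPM. Each of these was above the WT glial and vascular means of 248, 51.1, 15.0 and 56.8 CPM. Atoh1, which is not made by the GABAergic lineage, was at 2.85 ± 4.20 CPM, below the glial and vascular mean of 8.82 CPM. GABAergic progenitor-like cells (448 cells) held 794 ± 78.1, 411 ± 130.4, 72.2 ± 21.1 and 642 ± 130.2 CPM in the same order, and Atoh1 at 10.2 ± 5.16 CPM, which rests on 9 UMIs. In Purkinje-like cells (88 cells in the 3 animals with at least 10) the 4 levels were 118 ± 51.6, 35.3 ± 3.52, 4.04 ± 6.99 and 16.7 ± 14.5 CPM, at or below the background. These levels are a description, and no class of that kind was named in the tumors.

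Levels over the whole lineage depend on how many cells are at each stage, and in such sums fewer cells of a stage and less RNA per cell cannot be told apart. Node B-like cells made up 40.3% ± 7.60 of lineage cells in Vehicle and 19.0% ± 7.07 in Vismodegib, and Node D-like cells 5.93% ± 3.51 and 32.8% ± 15.9. Both shares differed with no overlap of the groups (exact permutation test, two-sided, adjusted p = 0.0159 in each). Node A-like cells made up 22.6% ± 4.80 and 16.2% ± 3.12 (exact permutation test, adjusted p = 0.0635, and 0.0317 without Vehicle 1 or 0.0423 without Vismodegib 3), and Node C-like cells 31.2% ± 3.07 and 31.9% ± 7.24 (exact permutation test, adjusted p = 0.865).

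With each stage given the same weight in every tumor, Neurod2 was higher in Vismodegib, at 211 ± 21.9 against 146 ± 25.0 CPM, a ratio of 1.45 where the unweighted lineage ratio was 4.32 (exact permutation test, two-sided, adjusted p = 0.0476 over 6 genes). That p rose to 0.0952 without Vehicle 4 or 5 or without Vismodegib 1, 2, 4 or 5. The difference itself stayed at 57.7 to 73.3 CPM when 1 tumor at a time was left out, where the test compared 4 tumors with 5. Atoh1 was 49.8 ± 19.9 against 80.7 ± 23.9 CPM (exact permutation test, adjusted p = 0.159) and Myod1 120.1 ± 35.0 against 75.1 ± 30.3 CPM (0.143, and 0.0476 without Vismodegib 3). Neurod1 was 2386 ± 685 against 2139.9 ± 419.8 CPM, Nhlh1 165 ± 33.7 against 178 ± 50.2 CPM and Nhlh2 524 ± 138 against 497 ± 136 CPM (exact permutation test, adjusted p = 0.786 for each of the 3). At equal stage weights the change of Neurod1 did not pass the test, and that of Neurod2 was smaller than in the lineage. These means are taken on CPM, so for both genes they rest mainly on Nodes C and D, where levels were highest. They say little about Nodes A and B, in which both genes were called higher with vismodegib.

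The effect of vismodegib was compared between Node A-like and Node C-like cells for each member. Only the difference for Atoh1, given above, passed the test over 6 genes with stages from clusters and a pseudocount of 10 CPM. The effects differed by 0.34 for Nhlh2 (exact permutation test, adjusted p = 0.0952, and 0.0238 without Vehicle 3). For Neurod1, Neurod2, Myod1 and Nhlh1 they differed by 0.31, 0.31, 0.21 and 0.01 (exact permutation test, adjusted p = 0.155, 0.143, 0.476 and 0.937). With a pseudocount of 1 CPM that of Neurod2 passed too (0.77, exact permutation test, adjusted p = 0.0238), and with 50 CPM its sign turned (-0.17). With stages from marker scores those of Myod1, Neurod1 and Nhlh2 passed as well (1.02, 0.44 and 0.66, exact permutation test, adjusted p = 0.0119 in each).

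The partners, antagonists and other relatives of these factors were followed from lists of the family. Of the E proteins, Tcf3 and Tcf4 were higher in Vehicle than in WT lineage cells (0.64 ± 0.13 (SE) and 0.90 ± 0.17 (SE), edgeR adjusted p = 7.45e-04 and 6.72e-04), and 0 of 3 were called with vismodegib by edgeR (0 at an unadjusted p under 0.05, 0 by DESeq2). Over all genes 44.7% were called against WT and 13.3% with vismodegib. In sums over the lineage Hes1, Hes6 and Hey1 were all 3 higher in Vehicle than in WT and all 3 lower with vismodegib. Such sums also follow the stage shares given above. By stage, vismodegib calls were Hes1 in Nodes A, B and C and Hey1 in Node C, with Hes6 in none. Of all genes tested, 2.21%, 3.02% and 1.57% were called in Nodes A, B and C. Hes1, a repressor of proneural genes, stood at 5.20 ± 1.76 CPM in WT, 138 ± 37.4 in Vehicle and 7.82 ± 2.10 in Vismodegib (with vismodegib -4.10 ± 0.23 (SE), edgeR adjusted p = 1.33e-06). Hes6 and Hey1 changed by -0.60 ± 0.18 (SE) and -0.93 ± 0.22 (SE) with vismodegib (edgeR adjusted p = 0.0385 and 0.0134), and the median over the 3 was -0.93 beside 0.00 over all genes. The other 4 of the 7 listed did not pass the low-count filter used with edgeR. DESeq2, run without that filter, called 4 of the 7 in each comparison.

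Among the 4 Id genes, Id1 was higher in Vehicle than in WT (1.38 ± 0.23 (SE), edgeR adjusted p = 2.02e-04) and lower with vismodegib (-2.30 ± 0.24 (SE), 1.36e-04). Id4 was higher with vismodegib (1.07 ± 0.32 (SE), edgeR adjusted p = 0.0390) and Id3 lower in Vehicle than in WT (-0.70 ± 0.26 (SE), 0.0395). By stage, Id1 was called lower with vismodegib in Nodes A, B and C and Id2 in Node B, and Id4 was called in no stage. The median over the Id genes was -0.28 with vismodegib, beside 0.00 over all genes, of which 13.3% were called. For Vehicle against WT it was -0.20, beside 0.06 and 44.7%.

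Of 28 further tissue-specific bHLH genes, 9 passed the filter in tumor lineage cells. With vismodegib Olig1 and Olig2, factors of the oligodendrocyte lineage, were lower (-2.69 ± 0.30 (SE) and -4.52 ± 0.51 (SE), edgeR adjusted p = 1.81e-04 and 1.83e-04), as were Scx, a tendon factor (-1.47 ± 0.36 (SE), 0.0155), and Neurod6 (-0.67 ± 0.19 (SE), 0.0297). Bhlhe22, a neuronal repressor, and Tcf15 were higher (1.04 ± 0.24 (SE) and 2.05 ± 0.46 (SE), edgeR adjusted p = 0.0107 and 0.00937). By stage, Olig1 and Olig2 were called lower with vismodegib in Nodes A and B, Neurod6 in Node B and Scx in Node C. Bhlhe22 and Tcf15 were called in no stage. Against WT, Olig1, Olig2 and Scx were higher in Vehicle (2.33, 3.22 and 3.82) and Bhlhe22 and Neurod4 lower (-1.03 and -1.60), with edgeR adjusted p = 1.33e-04, 4.37e-05, 6.83e-06, 0.00268 and 0.00214. The median over the list was -0.67 with vismodegib, where 13.3% of all genes were called and the median over all genes was 0.00. For Vehicle against WT it was -0.07, beside 44.7% and 0.06 over all genes.

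Of 11 homeodomain and zinc-finger factors of granule neuron identity, 10 were tested. In sums over the lineage Barhl1, a target of Atoh1, was the single gene lower with vismodegib (-0.63 ± 0.13 (SE), edgeR adjusted p = 0.00518) and Zic1 the single gene higher (0.41 ± 0.12 (SE), 0.0456), beside 13.3% of all genes called. By stage, Etv1 was called lower with vismodegib in Node A and Barhl1 in Nodes B and C, and Zic1 was called in no stage. Of all genes tested, 2.21%, 3.02% and 1.57% were called in Nodes A, B and C. Against WT, Barhl1, Lhx2 and Meis1 were higher in Vehicle lineage cells (0.47, 3.07 and 0.57), and Barhl2 and Pax6 were lower (-1.21 and -0.57), with edgeR adjusted p from 3.15e-04 to 0.00544, beside 44.7% of all genes called. Zic4 was called higher in Vehicle than in WT in Node B alone, beside 36% of all genes. In the lineage the medians were 0.20 with vismodegib and 0.20 for Vehicle against WT, beside 0.00 and 0.06 over all genes.

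The patterns of the members over the 40 tumor profiles (4 stages in 10 tumors) were compared with those of 7647 genes by Pearson's r of log2(CPM + 10). The profiles share animals and stages, so r is a description across stages rather than across independent samples. Neurod1 and Neurod2 followed each other (r = 0.933), as did Atoh1 and Myod1 (0.759) and Nhlh1 and Nhlh2 (0.719), while Atoh1 and Neurod2 ran opposite (-0.899). The genes most like Atoh1 were Trp53 (0.932), Tbata (0.923) and Cenpv (0.923). Those most like Myod1 were Cenpj (0.938), Mns1 (0.937) and Prkcq (0.936). Neurod1 was matched best by Stmn2 (0.975), Galr1 (0.972) and Rab3a (0.964), and Neurod2 by Gabbr2 (0.978), Sphkap (0.971) and Hivep2 (0.969). For Nhlh1 they were Btbd17 (0.934), Pdzrn3 (0.912) and Tex14 (0.906), and for Nhlh2 Clmp (0.933), Miat (0.919) and Podxl2 (0.889).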

How the data were processed

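Single-cell libraries of 15 mice were analysed from deposited tables of raw UMI counts per gene and barcode, 1 table per animal. The authors made them with Drop-seq Tools and STAR against mm10 with the transgene sequences. Tumor reads were first aligned to mm10 and hg19 together, to drop barcodes of human HEK 293 cells added to those runs. The submitters' processing notes also name bcl2fastq 2.18 and Seurat 2.3.0. Which gene annotation served for counting was not given in the sources used here (GEO labels and the study's methods). The p-values measure the spread between animals.

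Barcodes were kept from 500 UMIs and 500 genes up to 5 SD over the animal's median (48.2% of WT, 85.0% of Vehicle and 81.2% of Vismodegib barcodes). No doublet caller was run, so the upper limit is the single guard against doublets. Tumor and WT cells were clustered separately without the members and listed genes (17 and 14 clusters), and named from at least 3 detected markers, by a rule completed after the clusters were seen. Stages from per-cell marker scores matched those from clusters in 70.8% of lineage cells, and 16.2% of cells lay near a border between scores.

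Counts were summed per animal and class (at least 10 cells) and tested with edgeR 4.0.16 (quasi-likelihood, TMM, filterByExpr, Benjamini-Hochberg over all genes, threshold 0.05). An SE is the log2 change divided by the square root of F. Single values were tested with exact permutation tests over animals (two-sided, smallest p 0.00794 for 5 against 5), adjusted over the family named. Tests were checked on simulated data. Alternatives were DESeq2 1.42.0, another scaling, no filter, stages from scores, a limit of 4 SD, a term for the 2 sets of tumors, a replicate block and leaving out each animal. The omission of clusters led by hemoglobin or Ttr, the omission of Eomes+ cells and the subtraction of glial and vascular levels were added after the data were seen. Members and lists were chosen with earlier results of these data known. The named genes are the 6 members, the called genes of the lists (except 1 that is not reported here), and for each member the 3 genes of most similar pattern. Levels of Myod1+ and Myod1- cells were compared for 9 genes, and thinned cells were drawn to 500 UMIs.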

Additional observations from a re-analysis of the deposited data

Results flagged for a closer look

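In 7 of 90 groups of 5 animals 1 animal stood apart from the other 4 (gap over range above Dixon's critical value of 0.71), where chance gives about 1 group in 20. Myod1 in Node D-like cells was 5.34 CPM in WT 4 and 0 in the other 4, a value that rests on 1 UMI. Neurod1 in Node C-like cells was 6815 CPM in WT 1 against 5205 to 5551 CPM, and Neurod1 in Node A-like cells 1171 CPM in Vismodegib 4 against 776 to 831 CPM. Neurod2 was 27.9 CPM in the lineage cells of Vehicle 5 against 53.2 to 60.1 CPM, and 169 CPM in Node C-like cells of Vismodegib 4 against 208 to 221 CPM. Nhlh1 was 139 CPM in Node B-like cells of WT 1 against 109 to 115 CPM, and 41.3 CPM in Node D-like cells of Vehicle 1 against 132 to 164 CPM.

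The effect of vismodegib on Atoh1 differed between Node A-like and Node C-like cells by 1.25 on the log2 scale (exact permutation test, adjusted p = 0.0476).

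Outside the comparisons, 7 cells of 4 tumors and 0 WT cells held at least 15 UMIs of muscle genes. They held 36 of the 37 Myog UMIs of the series, and 3 of them held a Myod1 UMI. Where these cells came from was not tested.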

How the results depend on the processing

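Of 30 member calls, 23 kept their direction and their side of the threshold in all 17 to 19 settings run on them, and 1 changed sign, Neurod1 in Node D-like cells of Vehicle against WT (-0.47 with stages from marker scores). The causes of the changes below were not tested, beyond that leaving out an animal or the filter changes the number of animals or genes tested. Node D-like cells of Vehicle (771 cells) and members near 10 CPM limit the depth, and intervals cover counting error only. Genes called with vismodegib in Node A, B and C numbered 222, 286 and 148, and 364, 528 and 337 by DESeq2, 391, 520 and 360 without the filter on low counts, and 410, 621 and 435 with a term for the 2 sets of tumors. With stages from marker scores Node C had 457 and Node D 727, against 2 in Node D with clusters, 43 without the filter and 6 with the set term. Vehicle against WT gave 5146, 5727 and 4914 without the filter in Nodes A to C, against 3339, 3445 and 3071. Animals with the same replicate number were not treated as pairs in the main tests. Of 5 tumor pairs 2 or 3 correlated over 0.1, at most at 0.46 (Node C), and of 5 Vehicle and WT pairs 0 did. The study treated littermates, and which tumors were littermates was not given in the sources used here. A replicate block gave 6 genes in Node D and lost Nhlh1 in Node C of Vehicle against WT (0.57, edgeR adjusted p = 0.0919). It left stage-weighted Neurod2 at 65.1 CPM (exact permutation test, adjusted p = 0.188, or 0.0600 for permutation within the sets). There 5 pairs or the sets allow no adjusted p under the threshold for a gene that stands alone among 6. The share of Node C-like cells differed by 11.6 percentage points with score stages and by -1.12 without clusters led by hemoglobin or Ttr. Score stages turned stage-weighted Nhlh2 to -19.8 CPM, and gave differences between Node A and C effects of 1.02 for Myod1, 0.44 for Neurod1 and 0.66 for Nhlh2. That for Neurod2 was 0.77 with a pseudocount of 1 CPM and -0.17 with 50 CPM, and that for Nhlh1 -0.023 without clusters led by hemoglobin or Ttr. Between Myod1+ and Myod1- cells thinned to 500 UMIs, Neurod1, Nhlh1 and Mki67 differed by 11.2, 1.86 and -25.0 CPM, and with score stages Gli1 and Barhl1 by 15.6 and -44.5 CPM. Signs of values that were not called turned with vismodegib for Nhlh1 in the lineage (0.098 with the set term), for Myod1, Nhlh1 and Nhlh2 in Node C (-0.84, -0.39 and -0.24 with score stages, Nhlh1 -0.0080 without the filter and -0.021 without Eomes+ cells, Nhlh2 -0.019 with the set term) and for Neurod1 in Node D (0.59 with score stages). Leaving out 1 animal at a time, with vismodegib the lineage change of Nhlh1 ran from -0.15 to 0.12, its Node A change from -0.0044 to 0.30 and its Node C change from -0.12 to 0.17. The number of genes called ran from 66 to 174 in Node C (82 without Vehicle 5, 66 without Vismodegib 1 and 71 without Vismodegib 4) and from 0 to 2 in Node D. For Vehicle against WT the lineage differences ran from -0.090 to 0.18 for Nhlh1 and from -0.054 to 0.16 for Nhlh2. Stage shares ran from -8.40 to -5.30 percentage points in Node A and from -1.16 to 3.50 in Node C. Stage-weighted differences ran from 35.1 to 59.1 CPM for Myod1, -17.3 to 408 for Neurod1, 57.7 to 73.3 for Neurod2 and -19.7 to 68.6 for Nhlh2. The differences between Node A and C effects ran from -0.11 to 0.15 for Nhlh1 and from 0.30 to 0.43 for Nhlh2, Cntn2 between Myod1+ and Myod1- cells from -52.3 to -32.6 CPM, and levels above the glial and vascular cells of Node A from -17.0 to 3.15 CPM for Atoh1 and from -3.76 to 17.1 CPM for Nhlh1. Without Vismodegib 5, Nhlh1 in Node B above those cells passed (-22.5 CPM, exact permutation test, adjusted p = 0.0317). Counting each alternative separately, 466 values that answer a comparison and 1053 others kept direction and call, and 19 and 26 turned sign. With the sign kept, 12 and 16 gained a call and 8 and 30 lost one, and 27 counts of genes called moved.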

Other observations

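Within each treatment, Myod1+ and Myod1- cells of Node A-like and B-like stage could be set side by side in 5 tumors, a design in which the exact permutation test cannot go below p = 0.0625. In the Vehicle tumors Neurod1 stood at 409 against 405 CPM in Myod1+ and Myod1- cells, higher in 4 of 5, Neurod2 at 13.3 against 9.95 CPM, higher in 3 of 5, Nhlh2 at 313 against 286 CPM, higher in 4 of 5, and Cntn2 at 71.0 against 72.1 CPM, higher in 1 of 5. In the Vismodegib tumors Neurod1 stood at 532 against 827 CPM, Neurod2 at 27.1 against 43.2 CPM, Nhlh2 at 341 against 405 CPM and Cntn2 at 86.0 against 175 CPM, each lower in the Myod1+ cells of 5 of 5 tumors. Whether these differences differed between the treatments was not tested, and depth per cell was not matched here.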
